A study of Mus musculus with 12 samples.

Results

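The 10 core clock genes of the mouse liver, Arntl, Clock, Npas2, Per1, Per2, Per3, Cry1, Cry2, Nr1d1 and Nr1d2, were taken by gene symbol from a table of exon read counts with 38087 genes. All 10 were present once and all 10 passed the filter on low counts, which kept 14170 genes. The libraries hold total liver RNA from males of the C57BL/6j strain that were germ-free, that is kept free of microbes, and 13 to 16 weeks old. In the ghrelin group (n = 6) rat ghrelin, a stomach peptide that stimulates feeding and growth hormone release, was given under the skin for 5 days at 10 µg per mouse and day. The PBS group (n = 6) was injected with phosphate-buffered saline. Both injection and sampling are labelled zeitgeber time 2, which is 2 h after the lights come on, so every liver was taken at the same nominal point of the light cycle. There is no colonised group here, and all animals share the germ-free state, the sex and the sampling time.

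The circadian clock of a cell is a loop of transcription and translation. ARNTL (BMAL1) pairs with CLOCK or its relative NPAS2 and switches on the Per, Cry and Nr1d genes. PER and CRY proteins then block the pair, and the nuclear receptors NR1D1 and NR1D2 (REV-ERB alpha and beta) repress Arntl. In mouse liver the transcripts of Arntl, Clock, Npas2 and Cry1 usually peak from late night to dawn, and those of Nr1d1, Nr1d2, Per3, Cry2, Per1 and Per2 peak one after the other through the day to dusk, so zeitgeber time 2 lies on the falling side of the first arm and the rising side of the second. Feeding time, glucocorticoids and body temperature are known to reset the liver clock.

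Promoter windows of RefSeq on GRCm38.p6, from 250 bases before to 50 bases after a start site, were available for 9 of the 10 genes in 13 windows; Per2 was not matched. They were searched on both strands for the E-box CACGTG bound by ARNTL with CLOCK, the D-box TTATGTAA or TTACGTAA bound by DBP, TEF and HLF, a ROR and REV-ERB element searched as TAGGTCA, and the cAMP response element TGACGTCA; CACGTG, TTACGTAA and TGACGTCA read the same on both strands. The 4 windows with a match are shown because they hold the letters of these elements, and binding to them was not measured. For all but Per1, a further reason was that Arntl and Cry1 on one side and Per3 on the other varied in opposite directions between livers. The part of these letters in that was not tested. Capitals mark the matched motif.
Per1, chr11:69098699-69098998, plus strand, E-box: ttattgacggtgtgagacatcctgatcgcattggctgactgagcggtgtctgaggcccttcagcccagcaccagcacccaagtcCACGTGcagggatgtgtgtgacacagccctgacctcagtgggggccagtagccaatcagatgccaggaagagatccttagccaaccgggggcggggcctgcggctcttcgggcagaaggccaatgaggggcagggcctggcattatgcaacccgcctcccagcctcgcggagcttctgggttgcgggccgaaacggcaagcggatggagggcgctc
Cry1, chr10:85185005-85185304, minus strand, E-box: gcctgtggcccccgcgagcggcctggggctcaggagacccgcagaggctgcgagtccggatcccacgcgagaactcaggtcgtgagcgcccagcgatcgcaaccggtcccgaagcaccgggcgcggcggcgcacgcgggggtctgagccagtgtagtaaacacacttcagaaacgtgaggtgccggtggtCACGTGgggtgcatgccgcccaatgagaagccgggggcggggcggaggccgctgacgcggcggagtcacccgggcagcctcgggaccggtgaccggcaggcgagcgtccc
Per3, chr4:151044616-151044915, minus strand, 2 D-boxes: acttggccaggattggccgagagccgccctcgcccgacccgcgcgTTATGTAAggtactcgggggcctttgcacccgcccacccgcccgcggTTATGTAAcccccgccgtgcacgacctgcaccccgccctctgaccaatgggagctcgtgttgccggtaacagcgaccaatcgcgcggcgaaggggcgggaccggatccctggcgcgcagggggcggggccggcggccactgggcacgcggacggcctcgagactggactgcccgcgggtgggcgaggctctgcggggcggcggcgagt
Arntl, chr7:113207261-113207560, plus strand, ROR and REV-ERB element: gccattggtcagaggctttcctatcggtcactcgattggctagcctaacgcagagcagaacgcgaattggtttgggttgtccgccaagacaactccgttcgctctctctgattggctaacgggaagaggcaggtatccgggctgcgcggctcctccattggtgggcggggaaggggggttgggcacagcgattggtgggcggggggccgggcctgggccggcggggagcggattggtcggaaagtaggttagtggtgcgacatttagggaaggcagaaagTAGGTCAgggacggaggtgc

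The E-box began 166 bases before the start site in Per1 and 60 bases before it in Cry1. The D-boxes of Per3 began 205 and 158 bases before the start site, and the element of Arntl began 30 bases after it. Over all 32851 promoter windows the E-box was present in 7.15%, the D-box in 1.06%, the ROR and REV-ERB element in 2.61% and the cAMP response element in 1.79%; 0.0244% held at least 2 D-boxes. The windows of Clock, Npas2, Cry2, Nr1d1 and Nr1d2, the second Per1 window and the other Arntl window held none of these letters, which says nothing of the rest of those genes.

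Total counts ranged from 15775059 to 22302533 per library, so 1 read corresponded to 0.0438 to 0.0628 CPM (the count scaled to the library's total, with TMM factors). Summed markers of hepatocytes were 72200 to 88200 CPM in ghrelin livers and 76100 to 108000 CPM in PBS livers. Every one of 35 markers of hepatocytes, Kupffer cells, endothelium, stellate cells, cholangiocytes, neutrophils and lymphocytes had counts. Of the 29 tested, edgeR called 0, with 5 at an unadjusted p under 0.05 (Cps1, Lrat, Dcn, S100a8 and S100a9; 13.4% of all genes had such a p), and DESeq2 called 1, Cps1. A change in the share of a cell type and a change of RNA per cell cannot be told apart in such samples. Summed neutrophil markers were 0.816 to 4.90 CPM in ghrelin livers and 3.90 to 10.1 CPM in PBS livers, and their part in the results was not tested.

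The clock genes differed widely in level. Per kilobase of exon, Nr1d2 led with 18.4 ± 3.48 CPM in ghrelin livers and 20.4 ± 2.23 CPM in PBS livers (SD, n = 6 each), followed by Nr1d1 with 15.7 ± 0.92 CPM in ghrelin livers and 12.2 ± 2.08 CPM in PBS livers. These neighbours lay within 1 SD of Nr1d2 of each other in ghrelin livers and further apart in PBS livers. Clock came next with 6.37 ± 0.59 CPM per kilobase in ghrelin livers and 6.33 ± 0.50 in PBS livers, apart from both neighbours by more than their SD. Cry2 had 3.50 ± 0.54 CPM per kilobase in ghrelin livers and 3.51 ± 0.29 in PBS livers, where Per1, at 3.69 ± 0.72, did not differ from it beyond the spread. Per1, Cry1, Per2, Arntl and Per3 formed a chain in which each neighbour lay within 1 SD of the next in ghrelin livers, from 2.49 ± 0.33 CPM per kilobase for Per1 to 1.17 ± 0.67 for Per3. Npas2 was lowest, with 0.20 ± 0.17 CPM per kilobase in ghrelin livers and 0.14 ± 0.12 in PBS livers. The length used changes this order: per kilobase of the longest transcript in place of all exons, Arntl had 3.19 CPM in ghrelin livers and 2.79 CPM in PBS livers, above Cry1 in both.

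Between the groups no clock gene passed the threshold of an adjusted p under 0.05 in the quasi-likelihood test of edgeR (0 of 10 genes), where 0.106% of all genes passed. At an unadjusted p under 0.05 there were 2 of the 10, Per1 and Nr1d1, against 13.4% of all genes. In DESeq2, run as an alternative, both passed (2 of 10, with no adjusted p for Npas2), against 1.83% of all genes with an adjusted p. In none of the 10 were the groups free of overlap, which 0.826% of all genes were. The median log2 fold change of the 10 was 0.00 with 5 positive and 5 negative, and that of all genes was also 0.00.

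Per1 encodes a repressor of ARNTL and CLOCK that also responds within hours to glucocorticoids and cAMP. The gene (ENSMUSG00000020893) lies on chromosome 11 from 69095217 to 69109960 on the plus strand (GRCm38). Its lowest, median and highest values were 10.8, 13.9 and 16.5 CPM in ghrelin livers, against 15.6, 20.5 and 28.1 CPM in PBS livers. Of the ghrelin livers only ghrelin 4 (16.5 CPM) lay above the lowest PBS liver, PBS 6 (15.6 CPM). The log2 fold change was -0.57 (SE 0.12, unadjusted p = 0.000318, edgeR adjusted p = 0.0985, DESeq2 adjusted p = 0.00402). It was lower in ghrelin whichever library was left out (log2 fold change -0.64 to -0.46, edgeR adjusted p = 0.0439 to 0.207), and passed only without PBS 6.

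Nr1d1, the repressor of Arntl, lay on the other side. The gene (ENSMUSG00000020889) is also on chromosome 11, from 98767932 to 98775333 on the minus strand. It had 44.0, 48.6 and 51.3 CPM in ghrelin livers (lowest, median and highest), against 29.7, 38.8 and 44.1 CPM in PBS livers. Only ghrelin 2 (44.0 CPM) lay inside the PBS range, whose top was formed by PBS 1 and PBS 2 with 44.1 CPM each. The log2 fold change was 0.36 (SE 0.10, unadjusted p = 0.00201, edgeR adjusted p = 0.162, DESeq2 adjusted p = 0.0378), and 0.30 to 0.42 with each library left out. Its spread on the log2 scale was 0.0853 in ghrelin livers and 0.254 in PBS livers (SD, n = 6 each). The last exons of Nr1d1 run against those of Thra, a thyroid hormone receptor gene, and share 263 of 3077 exon bases on the opposite strand. The strand setting of the counting is not given in the sources used here; Thra itself had 7.59 CPM in ghrelin livers and 7.98 CPM in PBS livers (log2 fold change -0.08, SE 0.13).

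Nr1d2, the close relative of Nr1d1, did not reach an unadjusted p under 0.05, with 78.8, 98.0 and 121 CPM in ghrelin livers and 90.8, 112 and 124 CPM in PBS livers. Its log2 fold change was -0.15 (SE 0.11, edgeR adjusted p = 0.603).

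Most of the other members had small shifts beside wide ranges. Arntl (ENSMUSG00000055116, chromosome 7 from 113207465 to 113314126, plus strand) had 7.44, 10.9 and 23.9 CPM in ghrelin livers (lowest, median and highest), against 6.30, 11.1 and 17.7 CPM in PBS livers. Its log2 fold change of 0.19 (SE 0.29) was -0.09 without ghrelin 1. Npas2 was counted with 4 to 41 reads per library and reached 0.336, 0.495 and 2.14 CPM in ghrelin livers, against 0.219, 0.466 and 1.80 CPM in PBS livers. Its log2 fold change of 0.42 (SE 0.57) was 1.02 without PBS 5 and 0.02 without ghrelin 2. Clock, the partner of ARNTL, was steady at 80.9 to 102 CPM in ghrelin livers and 78.7 to 95.7 CPM in PBS livers (log2 fold change 0.01, SE 0.07).

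Of the remaining repressors, Per2 had 6.91, 9.57 and 14.2 CPM in ghrelin livers and 9.11, 11.6 and 14.1 CPM in PBS livers (log2 fold change -0.21, SE 0.17). Per3 (ENSMUSG00000028957, chromosome 4 from 151003652 to 151044665, minus strand), the period gene with the weakest repressor activity, ranged from 5.15 to 21.8 CPM in ghrelin livers and from 6.13 to 13.4 CPM in PBS livers (log2 fold change 0.23, SE 0.32). Without ghrelin 6, which had the 21.8 CPM, the value for Per3 was -0.07. Cry1 and Cry2 encode the cryptochromes, the strongest repressors of the loop. They had log2 fold changes of -0.07 (SE 0.23) and 0.00 (SE 0.10), with overlapping groups in both.

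**Figure D1:**
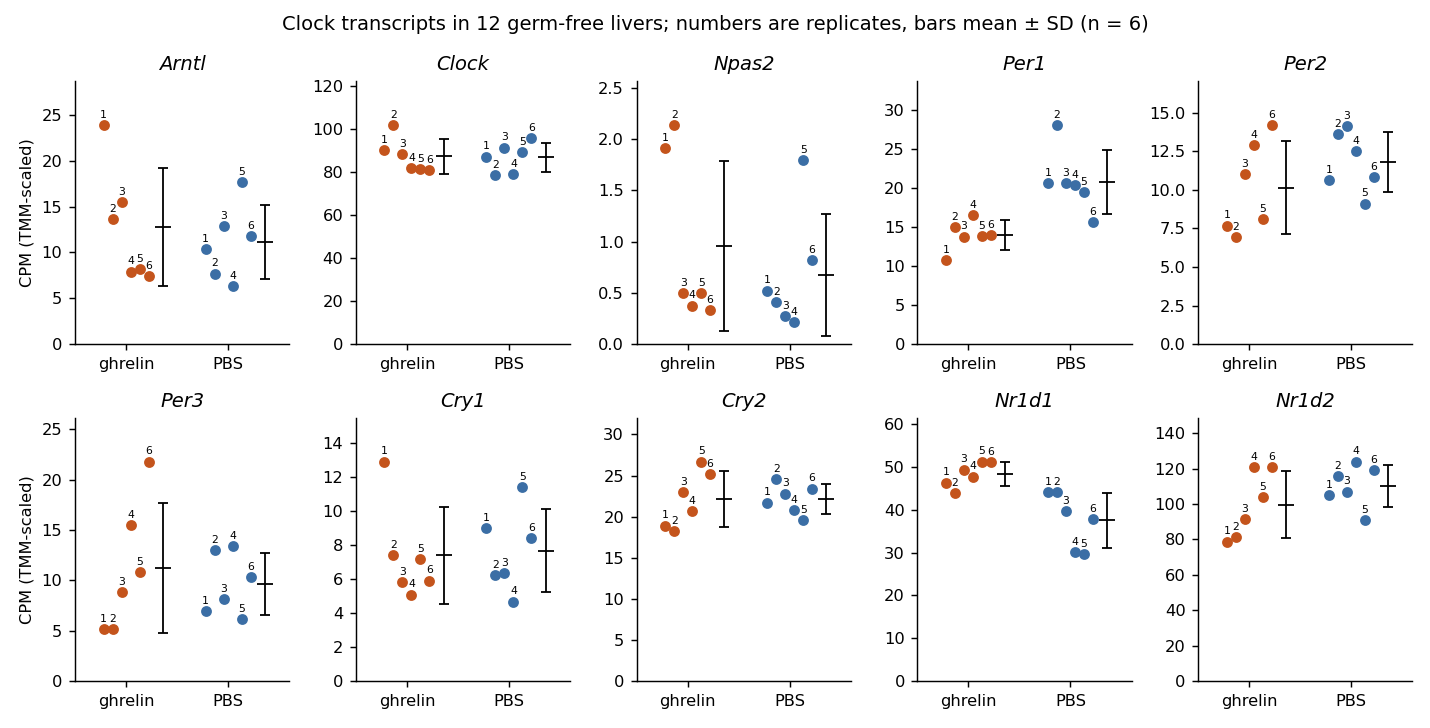
Level of each of the 10 clock transcripts in CPM (vertical axes, starting at 0) in the 6 ghrelin and 6 PBS livers; points are libraries with their replicate number and bars are the mean ± SD. Per1 is mostly lower and Nr1d1 mostly higher with ghrelin, while Arntl, Npas2 and Per3 spread widely inside both groups.

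**Figure D2:**
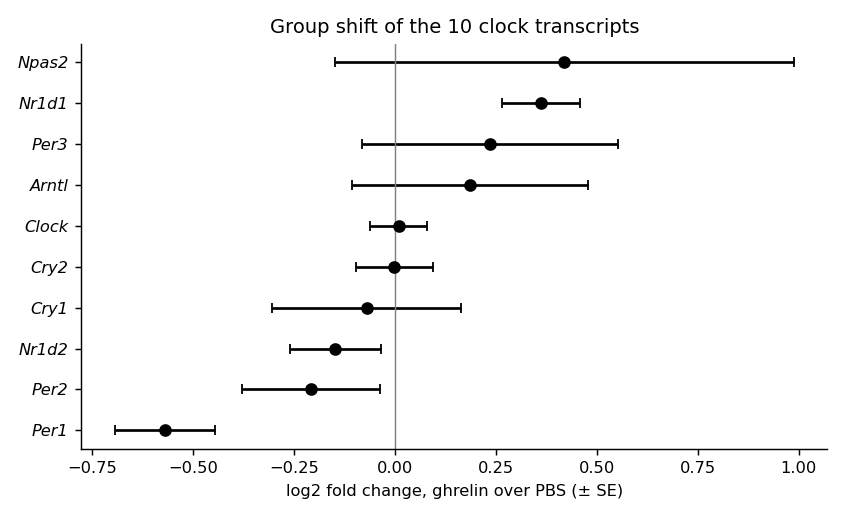
Log2 fold change, ghrelin over PBS, of the 10 clock transcripts (points) with their SE from edgeR (bars). Per1 at -0.57 and Nr1d1 at 0.36 lie furthest from 0 relative to their SE; Npas2 has the widest SE, 0.57.

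The spread between livers of the same group exceeded the group shifts for most members. From the lowest to the highest of the 12 livers, Npas2 varied 9.74-fold, Per3 4.24-fold and Arntl 3.80-fold. Cry1 varied 2.76-fold, Per1 2.59-fold and Per2 2.05-fold, and Clock only 1.30-fold. Within groups the SD of log2 CPM was 1.001 for Npas2, 0.67 for Per3 and 0.60 for Arntl, which placed them at the 99.6th, 97.9th and 96.5th percentile of all genes tested. Counting error alone gives an SD of 0.37, 0.10 and 0.09 for them at their mean counts. For Npas2 that mean was 15.6 reads, and counting error is larger in livers with fewer, down to 4 reads in PBS 4. Clock stood at the 22.6th percentile with an SD of 0.12, although it is the partner of ARNTL in the same loop.

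To describe this spread, the members were divided by their usual time of peak. In each liver an index was formed as the mean log2 CPM of the 4 dawn transcripts (Arntl, Clock, Npas2, Cry1) minus that of the 6 day and dusk transcripts. It was -0.20 in ghrelin 1, -0.56 in ghrelin 2, -1.46 in ghrelin 3, -2.10 in ghrelin 4, -1.69 in ghrelin 5 and -2.23 in ghrelin 6. In PBS livers it was -1.45 in PBS 1, -2.14 in PBS 2, -1.76 in PBS 3, -2.27 in PBS 4, -0.53 in PBS 5 and -1.30 in PBS 6. Ghrelin 1, PBS 5 and ghrelin 2 thus stood highest, and PBS 4, ghrelin 6 and PBS 2 lowest, with both groups at both ends. The index averaged -1.37 ± 0.83 in ghrelin livers and -1.58 ± 0.64 in PBS livers (SD, n = 6 each); the difference of 0.20 was smaller than the SD within groups, 0.74.

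Npas2 and Per3, which vary most, set apart the 3 livers with the highest index, which contains them. Npas2 had 1.91, 2.14 and 1.80 CPM in ghrelin 1, ghrelin 2 and PBS 5, and at most 0.821 CPM in the other 9. Per3 had 5.18, 5.15 and 6.13 CPM in these 3 livers, its lowest values. Their total counts were 16553401 in ghrelin 1, 15775059 in ghrelin 2 and 22302533 in PBS 5. Ghrelin 2 and ghrelin 1 had the lowest totals of all libraries and PBS 5 the highest, and the part of depth was not tested.

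**Figure D3:**
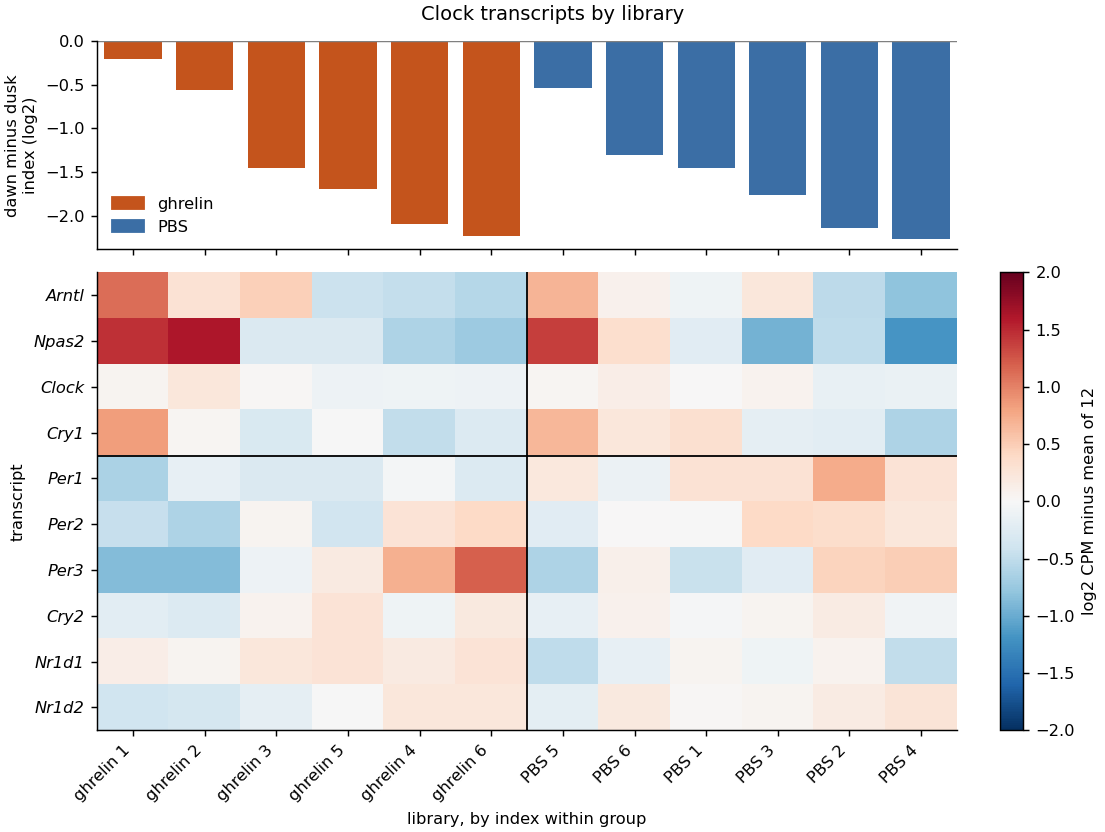
Upper part, the dawn minus dusk index (log2 scale) in each liver, sorted within group; lower part, log2 CPM of each transcript minus its mean over the 12 livers (colour), with dawn transcripts above the line. Livers at the high end of the index in each group have high Npas2 and low Per3, and those at the low end the reverse. Both transcripts are part of the index.

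Correlations between members over the 12 livers followed the same division. Of 45 pairs, 15 passed a permutation test with 100000 resamples at an adjusted p under 0.05 over the 45 pairs. The share of passing pairs among other genes was not computed, so these counts are not shown to be particular to clock genes. All 24 pairs of a dawn with a day or dusk transcript had a negative r, of which 7 passed. The 6 pairs of dawn transcripts were all positive, and 5 of them passed. Of the 15 pairs of day and dusk transcripts, 12 were positive and 3 passed; the 3 negative pairs joined Nr1d1 with Per1, Per2 and Nr1d2. With values centred on the group means, 18 pairs passed. Within ghrelin alone and within PBS alone (n = 6 each) no pair passed the exact permutation test after adjustment. With 720 permutations the smallest p is 0.00139, which for a single pair among 45 adjusts to 0.0625, so 0 passing pairs says little; the signs of the pairs named next were the same within both groups.

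Arntl and Nr1d2, activator and repressor gene, had the most negative r, -0.856 (rho -0.881, permutation p = 0.00045, adjusted 0.0101). It was -0.751 without ghrelin 1 and PBS 4, the livers with the most extreme Arntl, -0.906 within ghrelin and -0.842 within PBS. Arntl and Per3 had r = -0.826 (rho -0.86, permutation p = 0.001, adjusted 0.0144), -0.798 without the same 2 livers, -0.849 within ghrelin and -0.864 within PBS. Npas2 and Per2 had r = -0.838 (rho -0.867, permutation p = 0.00128, adjusted 0.0144), and -0.656 without ghrelin 1 and ghrelin 2, the livers with the most Npas2; it was -0.848 within ghrelin and -0.876 within PBS.

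Per3 and Nr1d2 had the most positive r, 0.867 (rho 0.881, permutation p = 0.00029, adjusted 0.0101). It was 0.859 without ghrelin 2 and ghrelin 6, 0.977 within ghrelin and 0.909 within PBS. For Per2 and Nr1d2 r was 0.805 (rho 0.776, permutation p = 0.00224, adjusted 0.0144), with 0.589 without ghrelin 1 and ghrelin 2, 0.833 within ghrelin and 0.602 within PBS. Npas2 and Cry1, a gene of the activator limb and a repressor gene that share the dawn peak, had r = 0.802 (rho 0.818, permutation p = 0.00224, adjusted 0.0144), 0.876 without ghrelin 1 and ghrelin 2, 0.773 within ghrelin and 0.917 within PBS.

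Per1 and Nr1d1, the members with the lowest p between the groups, had weaker correlations over the 12 livers, where r also holds the group shift. Nr1d1 had an r of -0.0641 with Arntl and -0.0962 with Nr1d2, and Per1 of -0.438 with Arntl and 0.529 with Per2; none of their pairs passed. Within ghrelin, Nr1d1 had an r of -0.873 with Clock, -0.845 with Npas2, -0.564 with Arntl, 0.743 with Per3 and 0.969 with Cry2. Within PBS these were 0.0269 with Clock, -0.295 with Npas2, -0.154 with Arntl, 0.064 with Per3 and 0.788 with Cry2. Per1 and Cry1 had -0.878 within ghrelin and -0.366 within PBS. None of these passed within a group, and the difference between the groups was not tested. The r of Nr1d1 with Per1, Per2 and Nr1d2 was positive once values were centred on the group means (0.285, 0.356 and 0.276), and Nr1d1 then passed with Cry2 (r = 0.624, permutation adjusted p = 0.0137).

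**Figure D4:**
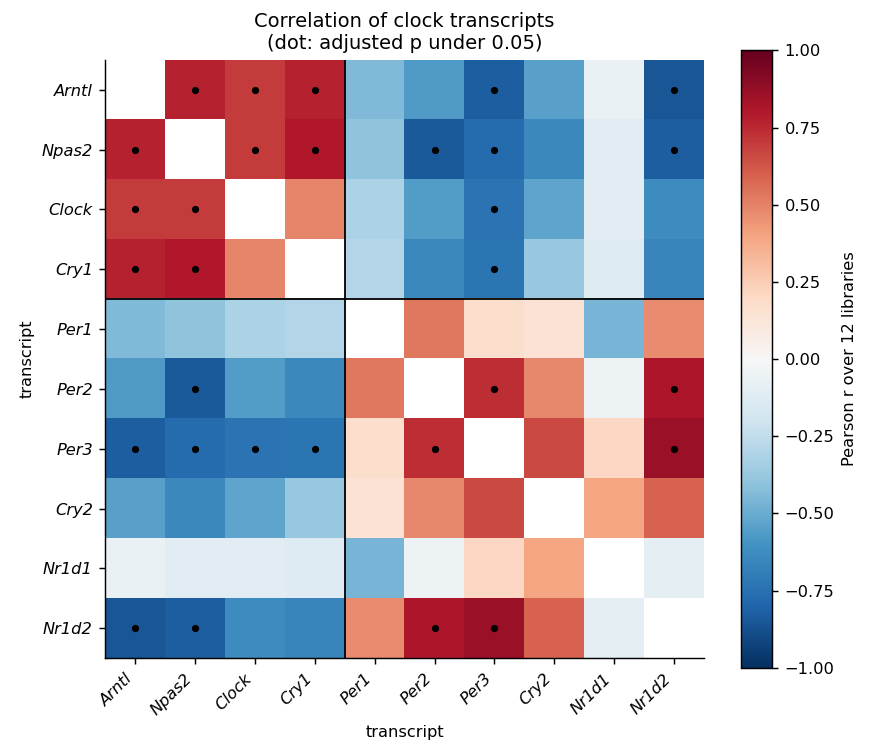
Pearson r over 12 livers for each pair of the 10 clock transcripts (colour, from -1 to 1); lines separate the 4 dawn from the 6 day and dusk transcripts and dots mark pairs with a permutation adjusted p under 0.05. The block of dawn with day and dusk transcripts is negative throughout, from -0.856 to -0.0641, and the column of Nr1d1 is pale.

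Other transcription factors of the loops were measured beside the members. Of 10 listed, 9 were tested; the log2 fold change lay above 0 in 4 and below it in 5 (median -0.04). EdgeR and DESeq2 called 0, and 0 had an unadjusted p under 0.05. Gm129 (Ciart), a repressor of ARNTL and CLOCK, had 3.21 ± 2.57 CPM in ghrelin livers and 7.94 ± 6.83 CPM in PBS livers (SD, n = 6 each; log2 fold change -1.30, SE 0.62, edgeR adjusted p = 0.38). The log2 fold change was 0.23 (SE 0.17) for Nfil3, a repressor at D-boxes, and -0.11 (SE 0.08) for Rora, an activator of Arntl.

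The spread of the members extended to direct targets of the clock. Dbp, an activator at D-boxes that ARNTL and CLOCK switch on, had 12.1 CPM in ghrelin 1, 15.9 CPM in ghrelin 2 and 11.5 CPM in PBS 5, the 3 livers with the highest index, against 23.7 to 63.1 CPM in the other 9. Its group means were close, 36.8 ± 20.6 CPM in ghrelin livers and 33.7 ± 14.3 CPM in PBS livers. In a family of 9 correlations of these factors with Arntl, chosen after the values were seen, 4 passed. The share among other genes was not computed here either. Tef, which acts at the same element as Dbp, had r = -0.901 (rho -0.937, permutation p = 0.00011, adjusted 0.00099), and -0.863 without ghrelin 1 and PBS 4. Dbp had r = -0.854 (rho -0.853, permutation p = 0.00031, adjusted 0.00139), and -0.832 without those 2 livers. Gm129 had r = -0.763 (permutation adjusted p = 0.0129) and Bhlhe41, a repressor at E-boxes, r = -0.694 (permutation adjusted p = 0.0297). All 4 were negative within ghrelin (-0.959 to -0.848) and within PBS (-0.829 to -0.592). Rora at r = 0.531 and Nfil3 at r = 0.229 were positive and did not pass.

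**Figure D5:**
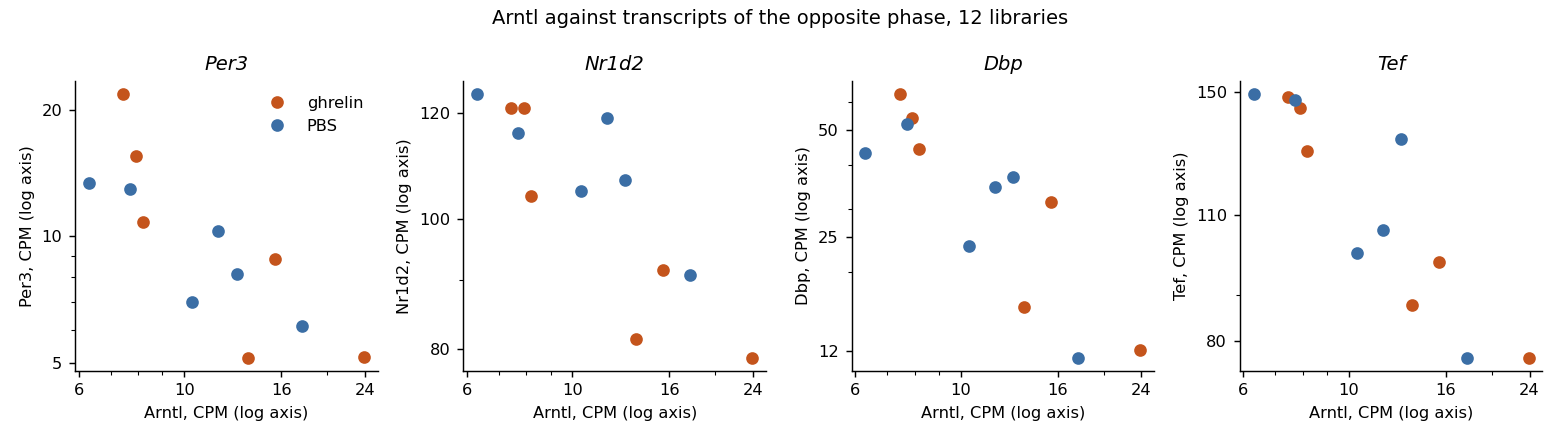
Level of Per3, Nr1d2, Dbp and Tef (vertical axes) against that of Arntl (horizontal axes) in CPM on log axes, 1 point per liver. In every panel livers of both groups run from upper left to lower right, with ghrelin 1 at 23.9 CPM of Arntl at the far right.

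Regulators of clock proteins (casein kinases, ubiquitin ligases and others) showed small shifts: 8 of 20 were positive and the median log2 fold change was -0.06. EdgeR and DESeq2 called 0 of them, and 2 of 20 had an unadjusted p under 0.05, Csnk1d and Usp2, which is no more than the 13.4% of all genes. Csnk1d, a kinase that marks PER proteins for degradation, had 55.7 CPM in ghrelin livers and 50.1 CPM in PBS livers (log2 fold change 0.15, SE 0.06, edgeR adjusted p = 0.28). Usp2, a rhythmic deubiquitinase, had 5.31 CPM in ghrelin livers and 12.4 CPM in PBS livers (log2 fold change -1.21, SE 0.52, edgeR adjusted p = 0.331). Its lowest values, 1.61 and 1.88 CPM, were those of ghrelin 1 and PBS 5. Usp7, which stabilises cryptochromes, had a log2 fold change of -0.11 (SE 0.05).

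Among 15 rhythmic output genes of liver 10 were negative (median log2 fold change -0.26), and edgeR called 1, against 0.106% of all genes. An unadjusted p under 0.05 was found for 6 of 15, against 13.4% of all genes, 5 lower and 1 higher in ghrelin. The higher one was E2f8, a cell cycle repressor (log2 fold change 0.96, SE 0.42, no DESeq2 adjusted p). It was highest in ghrelin 2 (4.58 CPM) and ghrelin 5 (5.45 CPM). Ghrelin 1 (0.714 CPM) and ghrelin 4 (0.941 CPM) lay below every PBS liver (1.01 to 1.81 CPM). The list was chosen with earlier results of these data known, so the share of 6 of 15 is no independent support for a shift. The gene called by edgeR was Ccrn4l (nocturnin), which fell by 1.18 on the log2 scale (SE 0.18, edgeR adjusted p = 0.0244). It was not called without ghrelin 1, without ghrelin 3 or with robust dispersion. Unlike Dbp it did not separate the 3 livers with the highest index: it had 6.91 and 10.9 CPM in ghrelin 1 and ghrelin 2 and 18.0 CPM in PBS 5. Neither Lpin1, an enzyme of triglyceride synthesis (log2 fold change -0.78, SE 0.24, edgeR adjusted p = 0.203), nor Tfrc, the transferrin receptor (-0.42, SE 0.18, edgeR adjusted p = 0.316), passed.

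Genes of cues that act on the liver clock had negative log2 fold changes in 15 of 18 cases (median -0.22, against 0.00 for all genes). EdgeR called 0, against 0.106% of all genes. An unadjusted p under 0.05 was found for 6 of 18, 5 lower and 1 higher in ghrelin, against 13.4% of all genes. This list too was chosen with earlier results of these data known, so these shares are no independent support for a shift. DESeq2 called 1, Ppargc1a, against 1.83%. Ppargc1a, a coactivator induced by fasting, had 13.2 ± 3.56 CPM in ghrelin livers and 27.3 ± 7.68 CPM in PBS livers (SD, n = 6 each; log2 fold change -1.06, SE 0.20, edgeR adjusted p = 0.0564). The list held 4 genes induced by glucocorticoids, as Per1 is: Tsc22d3 (GILZ), Sgk1, Fkbp5 and Zbtb16. The log2 fold change was -0.61 for Tsc22d3 (SE 0.19, edgeR adjusted p = 0.214) and -0.34 for Sgk1 (SE 0.10, edgeR adjusted p = 0.204). Fkbp5 had 70.4 CPM in ghrelin livers and 111 CPM in PBS livers (log2 fold change -0.66, SE 0.39). Zbtb16 had 59.1 CPM in ghrelin livers and 60.8 CPM in PBS livers (log2 fold change -0.04, SE 0.24), and none of the 4 passed. The part of these cues in the Per1 values was not tested.

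The genes most like Arntl, Per2 and Nr1d1 over the 12 livers were ranked by Pearson r among 11645 genes, as a description without a test. For Arntl they were Rfxank (r = 0.89), Leo1 (0.89), Chka (0.87) and Sumo3 (0.87), each also positive within ghrelin and within PBS. For Per2 they were Cyp2a4 (0.91), Mphosph6 (0.89), Golga7 (0.87) and l7Rn6 (0.87). For Nr1d1 they were Rai2 (0.89), Ttc38 (0.87), Cbx2 (0.87) and Rad9b (0.86). Cbx2, which had a log2 fold change of 0.65 between the groups, had an r of -0.06 with Nr1d1 within ghrelin and 0.89 within PBS. For Rad9b these were 0.19 and 0.91, for Rai2 0.65 and 0.98, and for Ttc38 0.70 and 0.77. Over the 12 livers r also holds the group shift.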

How the data were processed

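There were 12 liver RNA libraries, 6 from ghrelin-injected and 6 from PBS-injected mice. Per the labels' protocols, 250 ng of total RNA were depleted of ribosomal RNA, made into stranded libraries with 12 PCR cycles and read for 125 cycles from both ends. Per the submitters' processing notes, STAR 2.4.0i and mm10 were used. The deposited values are raw exon counts per gene, not normalised by the authors; how reads were counted (tool, annotation, strand, shared reads) is not given in the sources used here. No label says that libraries come from separate animals beyond their numbers, so p-values measure the spread between these samples. A chi-square comparison of libraries within groups gave 11.6 to 48.5 per degree of freedom, more than counting error alone; repeat libraries of the same animal are not told apart by this.

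Genes were kept by filterByExpr (minimum count 10, minimum total 15), scaled by TMM and tested with the quasi-likelihood F test of edgeR 4.0.16 (R 4.3.3), two-sided, group only, with Benjamini-Hochberg adjustment over 14170 genes and calls at 0.05. A positive log2 fold change means higher in ghrelin; its SE is derived from the F statistic. CPM use TMM factors; log2 CPM use a prior count of 2. DESeq2 1.42.0 and limma 3.58.1 gave alternatives. Positions and exon lengths are from GENCODE M21 on GRCm38. The fit was tested on simulated data. PCR copies are not independent molecules. Members and lists were chosen with earlier results of these data known. Named genes were the members, called list genes, the 3 list genes with the smallest p, the 4 genes most like each of Arntl, Per2 and Nr1d1, and the 3 most positive and 3 most negative pairs; Dbp, Tef, Bhlhe41, Fkbp5, Zbtb16, E2f8, the other pairs given, markers and Thra were named after their values were seen.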

Additional observations from a re-analysis of the deposited data

Results flagged for a closer look

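In all, 46 groups of 6 livers were examined (10 members, the index and 12 listed genes, in each group). Of these, 2 had a liver far from the others, no more than the about 1 in 20 that chance gives. Cry1 was 12.9 CPM in ghrelin 1 against at most 7.41 CPM in the other ghrelin livers, a gap of 0.702 of the range. Ghrelin 1 also has the highest index, but Cry1 is part of the index. Usp7 was 107 CPM in PBS 4 against at most 96.2 CPM in the other PBS livers, a gap of 0.647 of the range.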

How the results depend on the processing

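The log2 fold changes of Per1, Per2, Nr1d1 and Nr1d2 kept their sign in 22 alternative fits, and that of Npas2 in 21; the filter of at least 1 CPM in 6 libraries removed Npas2. Values near 0 changed sign: Cry2 was 0.0126 with upper-quartile scaling, 0.0018 with at least 1 CPM in 6 libraries, 0.002 without the 50 most abundant genes, and 0.0091 to 0.0504 in 6 fits without a library (all such fits, -0.057 to 0.0504). With a library left out, Clock ranged from -0.0367 to 0.0405 (3 negative, up to -0.0148), Cry1 from -0.2978 to 0.0842 (2 positive), Arntl from -0.0869 (without ghrelin 1) to 0.3732, and Per3 from -0.067 (without ghrelin 6) to 0.3821. The number of clock genes called was 1 without a filter (Per1, edgeR adjusted p = 0.0244), 2 with DESeq2, and 0 to 1 with a library left out. Over all genes 15 were called; the number was 63 without a filter, 204 with DESeq2, 9 with robust dispersion, and 0 to 32 with a library left out (ghrelin 1 or ghrelin 3 left out, 0, with 1675 and 1536 at an unadjusted p under 0.05; PBS 3 left out, 5; ghrelin 6, 6; ghrelin 2, 9; PBS 6, 23; PBS 5, 24; ghrelin 4, 32). In the cue genes 1 was called with DESeq2 (Ppargc1a), without a filter, with a replicate block, and without PBS 4 or PBS 5. The cause was not tested.

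Replicate numbers are shared by the groups but no label says that they pair animals. Deviations of same-numbered livers correlated from -0.081 to 0.272. Each ghrelin liver was set against all 6 PBS livers, and 3 of 6 correlated best with their own number. Whether the numbers pair animals cannot be told from these values. With a replicate block 58 genes and 0 clock genes were called (Per1 edgeR adjusted p = 0.0545), against 15 and 0 without it.

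The number of correlated pairs, 15, was 0 within ghrelin and 0 within PBS, where 6 livers each were used. The difference of the index, 0.20, was 0.11 to 0.30 under other definitions and -0.03 to 0.41 with a library left out. Npas2, at 4 to 41 reads per library, is limited by depth.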
